A study of Mus musculus with 6 samples.

Results

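Carbonic anhydrases are zinc enzymes that interconvert carbon dioxide and water with bicarbonate and a proton, and so set how fast acid made by metabolism can be buffered and moved out of a tissue. The family is divided by place: cytosolic enzymes such as Car2 and Car3, enzymes whose active site faces the outside of the cell such as Car4, Car9, Car12 and Car14, and related proteins (Car8, Car10 and Car11) that lack zinc-binding histidines and do not hydrate carbon dioxide. In the retina, Müller glia and the pigment epithelium are known for high carbonic anhydrase content, and human CA9 is a textbook target of the hypoxia-inducible factors (HIF). Messenger RNA of 9 such genes, taken by name from a table of 54532 genes, was compared between normal retina and retina with OIR. OIR usually stands for oxygen-induced retinopathy, in which pups raised in high oxygen return to room air and the retina becomes hypoxic.

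The 6 libraries were made from retina RNA at postnatal day 17, with 3 normal and 3 OIR samples, and all mice were wild type on the C57BL/6J strain. The oxygen schedule, the sex of the mice and whether each library is a separate animal are not given in the labels, and every p-value here measures the spread between the samples alone, which may be technical. Total counts were 15818168 to 17163513 per library. Levels are given as counts per 1000000 counts of a library (CPM), scaled by edgeR's TMM factors, which correct for differences in composition between libraries.

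Of the 9 genes, 1 rose and 5 fell in OIR retina at an edgeR adjusted p under 0.05 (quasi-likelihood test). The gene that rose was Car9, and those that fell were Car2, Car3, Car8, Car10 and Car12. Car4, Car11 and Car14 did not pass. Over all 17108 genes tested, 19.8% were called, 11.1% higher and 8.73% lower. All 9 genes passed the filter on low counts, but Car9 did so through its OIR libraries alone, with none of the normal libraries above the filter, and Car4 through its 3 normal libraries and 1 OIR library. The median log2 fold change was −0.42 over the 9 genes and 0.01 over all genes tested. Groups did not overlap for 6 of the 9 genes, against 36.8% of all genes tested. Retina is a mixture of cells, and in such bulk libraries fewer cells of a type and less RNA per cell cannot be told apart.

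**Figure D1:**
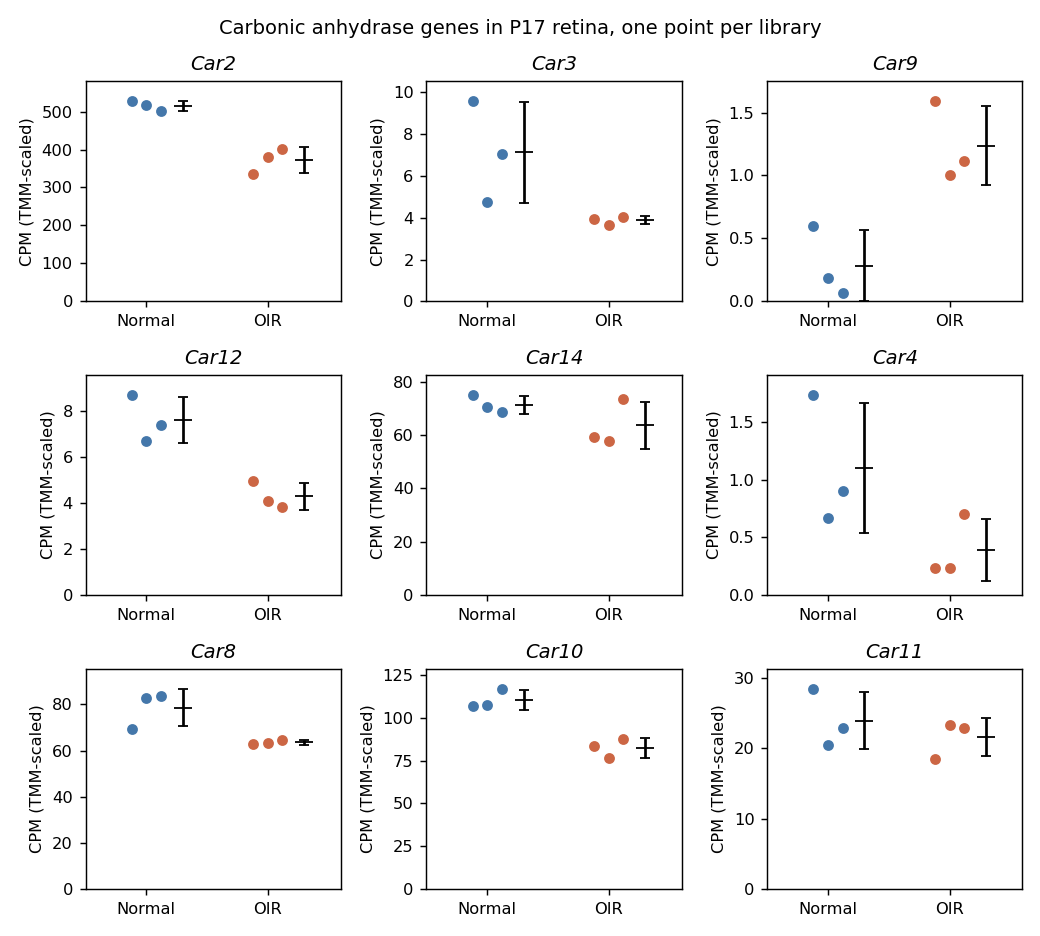
CPM (vertical axes, each from 0) of the 9 genes in the normal and OIR libraries; each point is a library and the black bar is the mean with its SD (n = 3). The groups are apart for Car2, Car3, Car9, Car12, Car8 and Car10 and overlap for Car14, Car4 and Car11.

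Markers of the retina were abundant, and the rod transducin gene Gnat1 averaged 9720 ± 430.2 CPM over the normal and 7003 ± 392 CPM over the OIR libraries (SD, n = 3). Of 4 rod markers 2 fell and 2 did not pass, among them Nrl (log2 fold change −0.10, edgeR adjusted p of 0.474). The summed level of 10 pigment epithelium markers was 233 to 406 CPM over the normal and 130 to 159 CPM over the OIR libraries, and 7 of the 10 fell. For 6 lens markers the range was 2.70 to 301 CPM (normal) and 61.3 to 4663 CPM (OIR), with OIR 3 the highest by far. Of 10 Müller glia markers 5 fell and 2 rose, and their sum was 4594 to 5183 CPM in the normal and 3626 to 4355 CPM in the OIR libraries. Of the 5 ciliary and iris epithelium markers tested, 1 fell. Without OIR 3, Car2, Car8, Car10 and Car12 still passed (log2 fold changes −0.54, −0.33, −0.48 and −0.76, edgeR adjusted p of 0.00342, 0.0488, 0.00438 and 0.0294). Car3 and Car9 just missed the threshold without it (−0.92 and 2.14, edgeR adjusted p of 0.0513 and 0.0543), and Car4 and Car14 passed as lower (−2.20 and −0.30, edgeR adjusted p of 0.0421 and 0.0345). Sex-linked transcripts marked 2 of the 3 normal libraries, but 1 of the 3 OIR libraries, as male, so each difference within a sex given here rests on a single library in 1 of the groups.

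Car2 (ENSMUSG00000027562, chromosome 3, 14886273 to 14900770, plus strand, mm10) encodes the fast cytosolic enzyme that in retina is known from Müller glia. It had 527, 516 and 502 CPM in the normal libraries and 334, 381 and 402 CPM in the OIR libraries. Every OIR library was below every normal library, and the OIR libraries were the more spread. Car2 mRNA fell by 27.7%, from 515 ± 12.7 to 372 ± 34.5 CPM (SD, n = 3), a log2 fold change of −0.47 with a standard error of 0.079 (edgeR adjusted p of 0.0021). The fall passed the test without any single library and was −0.43 on the log2 scale among male and −0.49 among female libraries. Müller glia genes gave unequal values beside it: Glul, the glutamine synthetase gene, had a log2 fold change of −0.57, and Vim, an intermediate filament gene, one of 1.57. The part of Müller glia in the fall of Car2 was not tested.

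Car2 made up most of the family's message. On a scale of CPM per kilobase of gene length (RPKM), it had 213 ± 5.25 RPKM in normal and 154 ± 14.2 RPKM in OIR retina (SD, n = 3). That was 72.1% of the summed RPKM of the 9 genes in normal and 69.2% in OIR retina. The summed CPM of the 9 genes was 816 ± 10.1 in normal and 614 ± 45.5 in OIR libraries, and without Car2 the sums were 301 ± 6.94 and 241 ± 15.4 CPM (SD, n = 3). The fall of the sum was therefore not carried by Car2 alone.

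Car3 (ENSMUSG00000027559, chromosome 3, 14863512 to 14872523, plus strand) lies 13749 bases before Car2 on the same strand and encodes a slow cytosolic isoform best known from skeletal muscle and fat. Its level was 9.59, 4.74 and 7.07 CPM in the normal libraries and 3.95, 3.66 and 4.05 CPM in the OIR libraries. The OIR libraries were close together and below all normal libraries, which differed from each other by more than the OIR libraries did. Car3 mRNA fell by 45.5%, from 7.13 ± 2.42 to 3.89 ± 0.206 CPM (SD, n = 3), with a log2 fold change of −0.88, a standard error of 0.245 and an edgeR adjusted p of 0.0291. The call was lost without Normal 1 (−0.60), Normal 3 (−0.88) or any of OIR 1 to OIR 3 (−0.89, −0.84 and −0.92), with edgeR adjusted p of 0.0513 to 0.0944 in those fits, with a sex covariate (−0.72, edgeR adjusted p of 0.0971) and by limma-voom (−0.82, adjusted p of 0.0514). Among male libraries the difference was −1.17 and among female libraries −0.24 on the log2 scale.

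Markers of the tissues best known for Car3, skeletal muscle and fat, were at low levels in these libraries. Of 7 skeletal muscle markers 3 were tested and none passed in the edgeR test, and their sum was 4.97 to 6.69 CPM in the normal and 5.19 to 7.72 CPM in the OIR libraries. The skeletal muscle myosin gene Myh4 had no counts. Of 5 adipocyte markers only Fabp4 was tested, which rose, Cfd had no counts, and Adipoq, a defining gene of fat cells, had 3 counts in the normal and 1 count in the OIR libraries. The gene whose pattern over the 6 libraries was most like that of Car3, among 13575 named genes with at least 1 CPM, was the pigment epithelium marker Ttr, the transthyretin gene. After each profile was centred on its own mean, the log2 CPM of Ttr and Car3 differed by 0.063 on average over the libraries. The nearest genes of Car2, Car8 and Car10 lay closer, at 0.022, 0.019 and 0.022. Such a search returns a nearest gene for any member, and the difference between the groups enters every profile, so the match does not show a shared cell type. The log2 fold change of Ttr was −0.97, with an edgeR adjusted p of 0.0021. The part of muscle, fat or pigment epithelium in the fall of Car3 was not tested.

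Car9 (ENSMUSG00000028463, chromosome 4, 43506966 to 43513729, plus strand) encodes a membrane enzyme with its active site outside the cell. It was close to undetected in normal retina, with 10, 3 and 1 counts (0.599, 0.182 and 0.0643 CPM), and had 27, 17 and 19 counts (1.59, 1.00 and 1.12 CPM) in OIR retina. All OIR libraries lay above all normal libraries, and Normal 1 held most of the normal counts. Car9 mRNA rose 4.24-fold, from 0.282 ± 0.281 to 1.24 ± 0.312 CPM (SD, n = 3), with a log2 fold change of 2.08, a standard error of 0.570 and an edgeR adjusted p of 0.0265. The 95% interval of the fold was 1.77 to 10.1. The size of the rise depended on Normal 1, without which the log2 fold change was 3.23 (edgeR adjusted p of 0.00569). The call was lost without any one of the other 5 libraries (log2 fold changes 1.64 to 2.20, edgeR adjusted p of 0.0543 to 0.113) and with a sex covariate (2.05, edgeR adjusted p of 0.0532). Within males and within females the difference was 2.07 and 2.68 on the log2 scale. The antisense gene Gm12454 shares 214 exonic bases with Car9 and had 15 counts over the 6 libraries, and without strand the reads of that stretch cannot be assigned to either.

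Of 15 hypoxia-inducible genes set beside Car9, 13 rose and none fell in the edgeR test (0 lower also at an unadjusted p under 0.05, by DESeq2 and by limma-voom), with a median log2 fold change of 0.59. Over all genes tested 11.1% were higher, and the list was chosen with earlier results of these data known. Adm, the gene of the vessel-dilating peptide adrenomedullin, and Vegfa, the vascular growth factor gene, had log2 fold changes of 5.48 and 1.64 (edgeR adjusted p of 1.82e-07 and 7.37e-07). Egln3, an oxygen-sensing hydroxylase gene of the HIF pathway, rose from 4.62 ± 1.05 to 39.7 ± 5.91 CPM, and Bnip3, a mitophagy gene, from 97.7 ± 3.44 to 199.7 ± 16.6 CPM (SD, n = 3). Ndrg1 and Kdm3a did not pass, with log2 fold changes of 0.07 and 0.23. Ndrg1 turned to −0.0018 without OIR 3.

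Car12 (ENSMUSG00000032373, chromosome 9, 66713686 to 66766845, plus strand), the other membrane isoform often described in hypoxic tumours and also known from the ciliary epithelium of the eye, did the opposite of Car9. It had 8.69, 6.69 and 7.39 CPM in the normal libraries and 4.95, 4.07 and 3.82 CPM in the OIR libraries. No OIR library reached the lowest normal library. Car12 mRNA fell by 43.6%, from 7.59 ± 1.01 to 4.28 ± 0.594 CPM (SD, n = 3), with a log2 fold change of −0.83, a standard error of 0.181 and an edgeR adjusted p of 0.00909. This fall passed without any single library and with a sex covariate.

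The balance between Car12 and Car9 was thus different in the groups. The ratio of Car12 to Car9 in RPKM was 4.40, 11.1 and 34.9 in the normal libraries and 0.944, 1.23 and 1.04 in the OIR libraries. In normal retina Car12 stood well above Car9, whereas in OIR retina their RPKM overlapped. The normal ratios rest on the few Car9 counts given above.

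The start regions of these genes are shown because Car9 and Car12 moved in opposite directions and the core of the HIF binding motif is a short run of letters that can be looked for in them. RefSeq windows (GRCm38.p6, the assembly of mm10), each from 250 bases before to 50 bases after an annotated start, were held for 6 of the 9 genes. They were searched on both strands for ACGTG and GCGTG, where a CACGTG stretch would count on both strands. Capitals mark a match, and all bases run 5′ to 3′ on the strand of the gene.
Car9 (chr4:43506776-43507075, plus strand): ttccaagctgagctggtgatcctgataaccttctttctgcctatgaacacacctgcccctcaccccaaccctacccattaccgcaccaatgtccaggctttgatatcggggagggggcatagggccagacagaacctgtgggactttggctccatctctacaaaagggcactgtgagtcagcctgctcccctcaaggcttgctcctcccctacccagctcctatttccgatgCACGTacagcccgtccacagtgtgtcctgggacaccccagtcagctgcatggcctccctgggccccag
Car12 (chr9:66713436-66713735, plus strand): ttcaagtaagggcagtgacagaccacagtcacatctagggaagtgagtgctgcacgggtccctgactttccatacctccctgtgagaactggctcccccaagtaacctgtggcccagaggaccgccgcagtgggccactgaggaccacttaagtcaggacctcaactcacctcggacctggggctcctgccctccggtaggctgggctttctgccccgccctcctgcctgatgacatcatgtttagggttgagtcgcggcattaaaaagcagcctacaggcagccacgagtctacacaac
Car14 (chr3:95904636-95904935, minus strand): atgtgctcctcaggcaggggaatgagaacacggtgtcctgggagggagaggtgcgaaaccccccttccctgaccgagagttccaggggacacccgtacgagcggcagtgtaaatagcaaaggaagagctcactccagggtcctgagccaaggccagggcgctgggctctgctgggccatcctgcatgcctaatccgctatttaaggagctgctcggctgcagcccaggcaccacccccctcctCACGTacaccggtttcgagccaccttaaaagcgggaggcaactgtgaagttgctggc
In Car9 the match, ACGTG on the opposite strand, began 18 bases before the RefSeq start. Both that start and the match lie after the gene start given above (43506966). Car14, which did not pass the test, held the same match beginning 7 bases before its start, and the Car12 window held none. Car10, which fell, held ACGTG on its own strand beginning 145 bases before an annotated start, and none in its other window. Car4 and Car11, which did not pass, held matches on the opposite strand, ACGTG in Car4 and GCGTG in both windows of Car11. Of the 8 windows of these 6 genes, 6 held a match, as did 43.8% of 32851 windows of this length over all genes. A match is a stretch of letters and not a measured binding site.

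**Figure D2:**
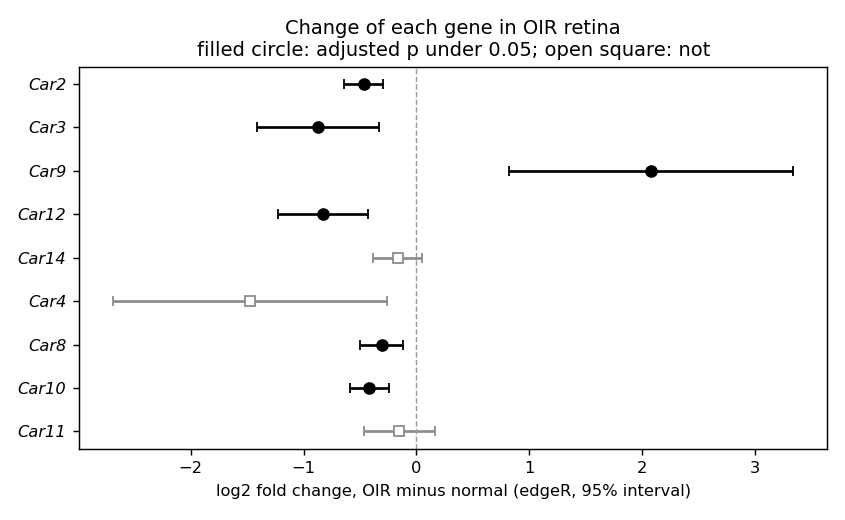
Log2 fold change of each gene in OIR against normal retina (horizontal axis) with the 95% interval of the edgeR fit; filled circles passed at an adjusted p under 0.05 and open squares did not. Car9 (2.08) stands alone to the right of 0, and the interval is widest for the low-count genes Car9 and Car4.

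Car14 (ENSMUSG00000038526, chromosome 3, 95897768 to 95904691, minus strand) encodes a membrane enzyme known from Müller glia and pigment epithelium. It was the second most abundant of the 9 per gene length, with 28.1 ± 1.32 RPKM in normal and 25.0 ± 3.44 RPKM in OIR retina (SD, n = 3). In CPM it had 75.1, 70.6 and 68.5 in the normal libraries and 59.4, 57.7 and 73.6 in the OIR libraries. OIR 1 and OIR 2 lay below all normal libraries, but OIR 3, the library with the most lens transcripts, lay among them. The log2 fold change of −0.17 did not pass (edgeR adjusted p of 0.279), and its 95% interval ran from −0.39 to 0.05. Car14 shares 445 exonic bases with Aph1a on the other strand, and reads there cannot be assigned without strand.

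Car4 (ENSMUSG00000000805, chromosome 11, 84957786 to 84966044, plus strand) encodes a lipid-anchored enzyme known in the eye from the capillaries beneath the pigment epithelium. It had 29, 11 and 14 counts in the normal libraries (1.74, 0.669 and 0.900 CPM) and 4, 4 and 12 counts in the OIR libraries (0.236, 0.236 and 0.705 CPM). The groups overlapped through OIR 3 and Normal 2. The log2 fold change of −1.48, with a 95% interval of −2.69 to −0.26, did not pass (edgeR adjusted p of 0.0867). With no filter on low counts Car4 passed (−1.48, edgeR adjusted p of 0.0449), and 6 of the 9 genes then fell. Endothelial markers moved the other way, as all 7 of them rose, with a median log2 fold change of 1.39.

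The pigment epithelium markers summed to 406, 233 and 297 CPM in Normal 1, Normal 2 and Normal 3 and to 137, 159 and 130 CPM in the OIR libraries. Among the normal libraries 4 of the 9 genes, Car3, Car4, Car11 and Car12, had the same order as these sums, with Normal 1 highest and Normal 2 lowest, whereas Car14, also known from pigment epithelium, did not. The share of all genes tested with this order was not computed, so the 4 of 9 has no background to be judged against. Among the OIR libraries none of the 9 had the order of the markers: Car3 ran in the reverse order, and Car4 was highest in OIR 3, where the markers were lowest. These orders rest on few counts in OIR 1 to OIR 3, with 67, 62 and 69 for Car3 and 4, 4 and 12 for Car4. The marker Ttr, with 58.6, 53.0 and 58.2 CPM there, did not have the order of the sums either. The most abundant markers of the list, Ttr and the opsin gene Rgr, went from 110 ± 31.0 to 56.6 ± 3.10 CPM and from 80.4 ± 18.8 to 30.2 ± 3.18 CPM (SD, n = 3). The part of pigment epithelium in the levels of the 9 genes was not tested.

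**Figure D3:**
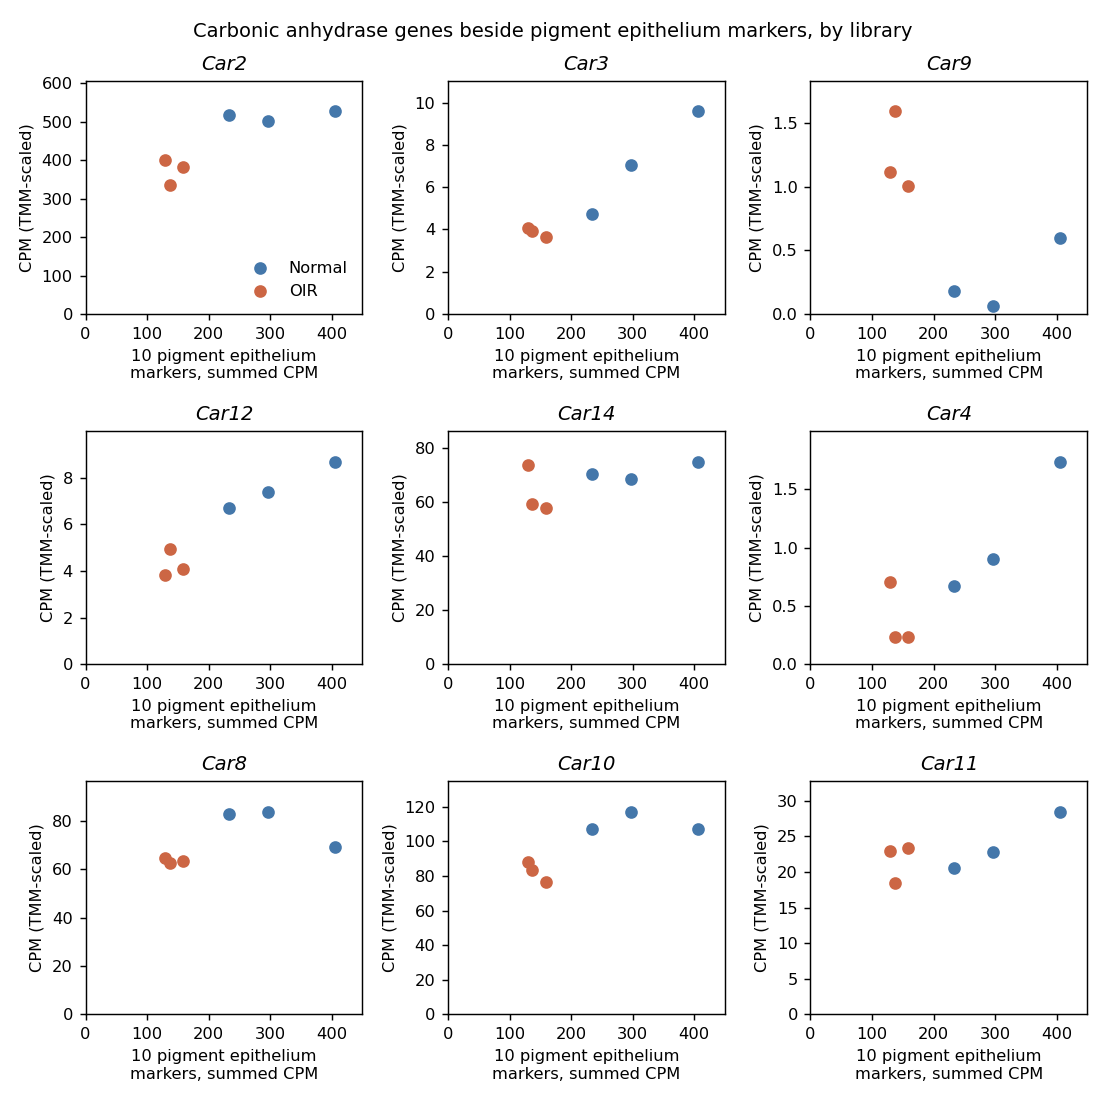
CPM of each of the 9 genes (vertical axes, each from 0) against the summed CPM of 10 pigment epithelium markers (horizontal axes), a point per library. The normal libraries spread from 233 to 406 CPM of the markers and the OIR libraries lie between 130 and 159 CPM.

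Per gene length, the acatalytic members all had more RNA than Car3, Car4, Car9 and Car12 in both groups. Car8 (ENSMUSG00000041261, chromosome 4, 8143362 to 8239041, minus strand), whose protein binds the inositol trisphosphate receptor and restrains calcium release, had 69.3, 83.0 and 83.8 CPM in the normal libraries and 62.8, 63.3 and 64.7 CPM in the OIR libraries. The OIR libraries were nearly alike and just below Normal 1. Car8 mRNA fell by 19.2%, from 78.7 ± 8.17 to 63.6 ± 1.00 CPM (SD, n = 3), with a log2 fold change of −0.31, a standard error of 0.087 and an edgeR adjusted p of 0.0302. The call was lost without Normal 2 (−0.27), Normal 3 (−0.26), OIR 1 (−0.30) or OIR 2 (−0.31), with edgeR adjusted p of 0.0702 to 0.123, and when libraries were scaled by their totals alone (−0.26, edgeR adjusted p of 0.0624).

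Car10 (ENSMUSG00000056158, chromosome 11, 93098028 to 93601749, plus strand), whose protein is a secreted ligand of the synaptic neurexins, had 107.0, 107.4 and 117 CPM in the normal libraries and 83.7, 76.4 and 87.8 CPM in the OIR libraries. The groups were clearly apart. Car10 mRNA fell by 25.2%, from 111 ± 5.75 to 82.6 ± 5.76 CPM (SD, n = 3), with a log2 fold change of −0.42, a standard error of 0.078 and an edgeR adjusted p of 0.00376. It passed without any single library, with edgeR adjusted p of 0.00399 to 0.0274.

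Car11 (ENSMUSG00000003273, chromosome 7, 45699843 to 45704682, plus strand), the closest relative of Car10, had 28.5, 20.5 and 22.8 CPM in the normal libraries and 18.5, 23.3 and 22.9 CPM in the OIR libraries. The groups overlapped, and without Normal 1, its highest library, the log2 fold change was −0.0066. It was −0.15 with all libraries (edgeR adjusted p of 0.515), with a 95% interval from −0.46 to 0.16, so that a fall as large as that of Car10 (−0.42) lies within the interval. The difference between the changes of Car10 and Car11 was not tested.

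Of 3 genes whose proteins these members bind, 2 fell, with a median log2 fold change of −0.30. Over all genes tested 8.73% were lower. Itpr1, the inositol trisphosphate receptor bound by Car8, fell by 24.9% and the neurexin gene Nrxn3 by 18.8% (edgeR adjusted p of 0.0162 and 0.0146), and Nrxn2 did not pass (log2 fold change −0.16). None rose in the edgeR test (0 also at an unadjusted p under 0.05, by DESeq2 and by limma-voom). No partner passed without Normal 3, OIR 1 or OIR 2, and 1 passed with a sex covariate. Neuronal markers moved beside them: 6 of 7 bipolar and 5 of 6 amacrine cell markers fell, with median log2 fold changes of −0.53 and −0.34. Of 4 horizontal cell markers 2 fell, and of 6 ganglion cell markers none passed in the edgeR test. The part of these cells in the levels of Car8 and Car10 was not tested.

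**Figure D4:**
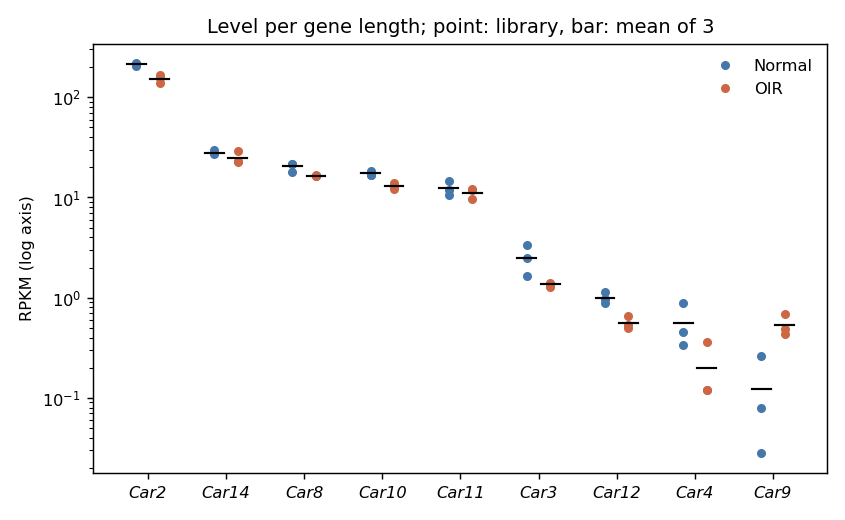
Level of the 9 genes per gene length (RPKM, log axis), a point per library and a bar at the mean of 3 libraries, in order of the normal mean. Car2 lies far above the rest, and Car9 is the lowest in normal retina but not in OIR retina.

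Per gene length the order in normal retina was Car2, Car14, Car8, Car10, Car11, Car3, Car12, Car4 and Car9. Neighbours whose normal libraries overlapped were Car8 (20.4 ± 2.12 RPKM) with Car10 (17.4 ± 0.904 RPKM), and Car12 (0.999 ± 0.133 RPKM) with Car4 (0.561 ± 0.286 RPKM). All other neighbours were apart. In OIR retina the first 7 kept their places, and Car9 (0.537 ± 0.136 RPKM) changed places with Car4 (0.200 ± 0.138 RPKM). There the overlapping neighbours were Car10 (13.0 ± 0.905 RPKM) with Car11 (11.2 ± 1.38 RPKM), and Car12 (0.563 ± 0.078 RPKM) with Car9. By class, the cytosolic enzymes summed to 215 ± 5.67 RPKM in normal and 155 ± 14.2 RPKM in OIR retina, the membrane-bound enzymes to 29.8 ± 1.81 and 26.3 ± 3.50 RPKM, and the acatalytic members to 50.2 ± 1.57 and 40.7 ± 1.72 RPKM (SD, n = 3).

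A further 7 carbonic anhydrase genes were in the table. Car5b, a mitochondrial isoform, Car7, a cytosolic isoform of neurons, and Car15 were tested and none passed in the edgeR test, with log2 fold changes of −0.38, −0.19 and −0.48. At an unadjusted p under 0.05, 1 of these 3 was lower, and DESeq2 and limma-voom called 0. Car5b passed without OIR 1 (−0.55, edgeR adjusted p of 0.0481). Car1, Car5a, Car6 and Car13 had too few counts to be tested. Car6, a secreted isoform best known from saliva, had 3, 2 and 4 counts in the normal and 19, 5 and 10 counts in the OIR libraries. The ratio of its summed counts was 3.61, with a 95% Clopper-Pearson interval of 1.70 to 8.56 that covers counting error only. Car5a had 3 normal and 15 OIR counts (ratio 4.78, interval 1.35 to 25.7) and Car13 had 4 and 15 (ratio 3.58, interval 1.14 to 14.8). When no filter was applied none of these 3 passed, with edgeR adjusted p of 0.282 for Car5a, 0.0852 for Car6 and 0.382 for Car13.

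Car1, the isoform best known from red blood cells, had 5 counts in the normal and 6 in the OIR libraries. Erythroid markers were higher in OIR retina, with 4 of 5 tested rising and a sum of 60.3 to 90.3 CPM in the normal and 176 to 210 CPM in the OIR libraries. Slc4a1, the red cell anion exchanger gene, had 0 counts in the normal and 12 in the OIR libraries. Oligodendrocytes, which are known for Car2, gave 1 marker of 4 tested that rose, Cnp, and none that fell in the edgeR test.

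Carbonic anhydrases work with transporters that carry bicarbonate, protons and lactate across the membrane. Of 8 tested genes of the Slc4 bicarbonate transporters, 1 rose and 4 fell, with a median log2 fold change of −0.26. The shares over all genes tested were 11.1% higher and 8.73% lower. Slc4a4, the electrogenic sodium bicarbonate cotransporter known from Müller glia, had 18.8, 19.9 and 20.3 CPM in the normal libraries and 36.4, 32.7 and 33.4 CPM in the OIR libraries, a rise of 1.74-fold (edgeR adjusted p of 0.000196). Slc4a3, a chloride-bicarbonate exchanger gene, had 189, 186 and 173 CPM in the normal and 103, 119 and 124 CPM in the OIR libraries, a fall of 1.58-fold (edgeR adjusted p of 0.00026). The groups were apart for both. Slc4a5 and Slc4a10, sodium-dependent bicarbonate transporter genes, fell by 34.8% and 25.4% (edgeR adjusted p of 0.000313 and 0.00392). The calls of these 4 genes held in every alternative run.

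Among 12 tested proton and lactate transporter genes, 2 rose and 4 fell, with a median log2 fold change of −0.31. Of all genes tested, 11.1% were higher and 8.73% lower. Genes of lactate transport stood on both sides. Slc16a3, which encodes the lactate and proton exporter MCT4 of glycolytic cells, rose from 82.2, 65.3 and 65.5 CPM to 155, 160 and 168 CPM, or 2.27-fold (edgeR adjusted p of 1.72e-05). Bsg, which encodes basigin, the chaperone of the lactate transporters, rose 1.37-fold from 743 ± 96.5 to 1015 ± 43.9 CPM (SD, n = 3; edgeR adjusted p of 0.00707). Slc16a1, the gene of the transporter MCT1, fell by 26.9% (edgeR adjusted p of 0.00317), and Slc9a7, a sodium-proton exchanger gene of the Golgi, fell by 27.7% (edgeR adjusted p of 0.00946). Slc9a7 missed the threshold without Normal 3 (−0.40, edgeR adjusted p of 0.0502). Slc16a8, the lactate transporter gene of the pigment epithelium, was chosen after its values were seen and fell by 45.7% (edgeR adjusted p of 0.00973). Its normal libraries had 23.7, 14.8 and 13.9 CPM, and Normal 1, the library with the most pigment epithelium transcripts, was the highest. Normal 2 and Normal 3 ran against the summed markers (233 and 297 CPM). The part of pigment epithelium in the fall of Slc16a8 was not tested. Slc16a7, the gene of the transporter MCT2, likewise chosen after its values were seen, fell by 24.7% (edgeR adjusted p of 0.0346). The number that fell was 2 without Normal 3, 7 without Normal 1 and 7 when no filter was applied.

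**Figure D5:**
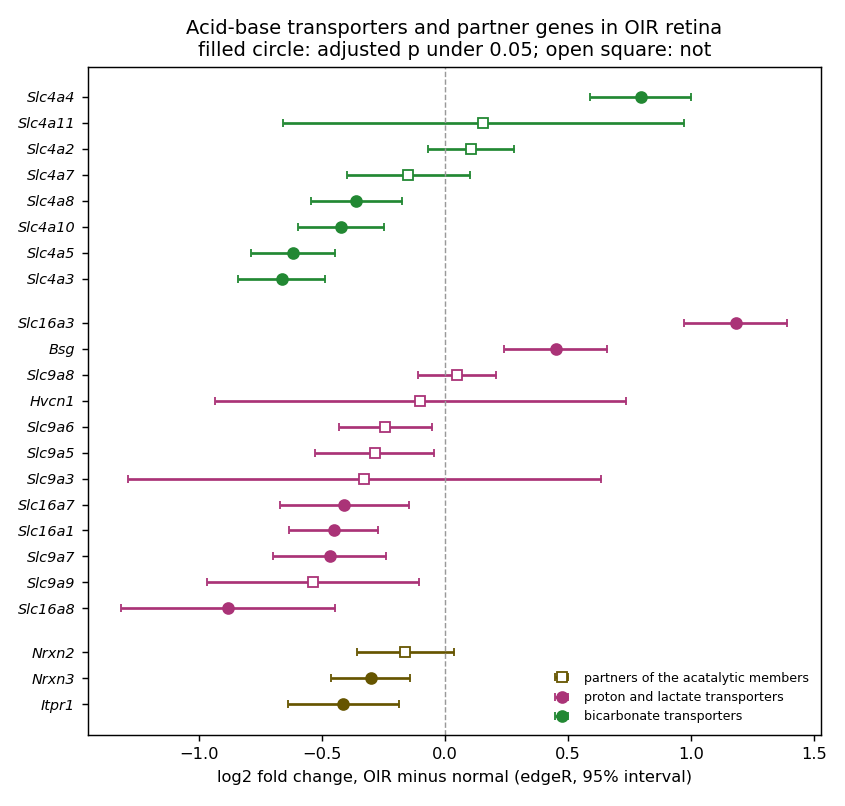
Log2 fold change (horizontal axis) with the 95% interval of the edgeR fit for the tested bicarbonate transporters, proton and lactate transporters and partner genes of the acatalytic members; filled circles passed at an adjusted p under 0.05. Slc16a3 (1.18), Slc4a4 (0.80) and Bsg (0.45) lie to the right of 0 among the genes that passed.

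The genes most like the other members that passed were found in the same way as for Car3. Nxnl1, which encodes the rod-derived cone viability factor, and Prmt8, a neuronal methyltransferase gene, differed least from Car2, by 0.022 and 0.027 on average on the log2 scale over the 6 libraries. The nearest profiles were those of Casd1 and Pid1 for Car10 (0.022 and 0.023), of Lifr and Hsf2 for Car8 (0.019 and 0.023), and of Magee2 and Pou3f3 for Car12 (0.063 and 0.086). Besides Ttr, Slc13a3 was near Car3 (0.078). Car9 had no close neighbour: Hlx and Exoc3l2 differed from it by 0.231 and 0.255. With 77 counts of Car9 in all, counting noise adds to these distances.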

How the data were processed

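RNA of 3 normal and 3 OIR retina samples of postnatal day 17 had been sequenced. Per the labels' protocols, extraction used TRIzol and library preparation the NEBNext Ultra RNA kit. The deposited values are raw counts of reads per gene, listed with gene length, position and biotype. The submitters' processing notes name CASAVA 1.8, fastp, HISAT2 2.0.5, featureCounts 1.5.0-p3, DESeq2 1.20.0 and the mm10 build (annotation release, strand setting and read filters: not given in the sources used here). All 9 genes had the same positions in GENCODE vM21.

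OIR columns were matched to samples by title, and columns of that day without OIR in their name to the normal samples of the same number. No pair of libraries within a group was alike to within counting noise (chi-square divided by its degrees of freedom, 7.20 to 23.1). The main test was the quasi-likelihood test of edgeR 4.0.16 in R 4.3.3 (glmQLFit, glmQLFTest), with TMM scaling, no covariate, filterByExpr (minimum count 10, total 15) and Benjamini-Hochberg adjustment over the 17108 genes kept, at 0.05. A standard error here is the size of the log2 fold change over the root of F. CPM and RPKM were computed from counts, TMM factors and gene length. Genes left out of the test held 0.164% of counts. With 3 samples against 3, an exact permutation test cannot give a p below 0.1.

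The genes and lists were chosen with earlier results of these data known, and list counts are descriptions with no set test. A few list genes are not reported here and are in no count or median of a list. The text names all 9 genes, up to 4 genes per pathway list by adjusted p, up to 2 per marker list by level, and for each of the 9 that passed the 2 genes of most similar profile. Chosen after their values were seen were Slc16a8, Slc16a7, Vim, Fabp4, Adipoq, Cfd, Myh4, Cnp, Slc4a1, Nrxn2, Ndrg1 and Kdm3a. As alternatives, DESeq2 1.42.0, limma-voom (limma 3.58.1), size factors by the median of ratios, scaling by library totals alone, all genes without a filter, a filter of 1 CPM in 3 libraries, a block for the replicate number, sex as a covariate, a threshold of 0.01 and the omission of each library were run. The tests were tried on simulated counts with 200 changed genes. There edgeR called 163 genes, 7 of them falsely, and recovered 30% of the changes of the smallest size and 84% of the next. A gene with a small change that did not pass may therefore still have changed.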

Additional observations from a re-analysis of the deposited data

How the results depend on the processing

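Over the alternatives run, the 9 carbonic anhydrase genes gave 134 log2 fold changes beside the reported ones, of which 110 kept their direction and side of the threshold, 21 lost the call, 3 gained it and none reversed; Car2, Car10 and Car12 kept their call in all 15. The number of carbonic anhydrases that fell was 3 at an adjusted p under 0.01 and 3 to 6 when a library was left out, with 3 without Normal 3, OIR 1 or OIR 2. The number that rose was 0 at an adjusted p under 0.01, 0 with sex as a covariate, and 0 to 1 when a library was left out. Over all genes, 1116 rose and 647 fell at an adjusted p under 0.01, and leaving out a library gave 1237 to 2097 higher and 761 to 1734 lower genes, the lowest without Normal 3 and OIR 1. The causes were not tested. Same-numbered normal and OIR samples did not deviate together (correlations 0.0609, −0.182 and 0.0712). With 3 samples per group these values cannot settle whether the numbers pair the samples, and the labels do not say. With the replicate block 1680 genes rose and 1166 fell, and the calls of the carbonic anhydrases were the same, 5 lower and 1 higher. Genes that did not pass and changed sign were Hvcn1, Slc4a11 and Ndrg1. Hvcn1 (−0.10) was 0.0136 with the sex covariate and −0.31 to 0.0522 when a library was left out. Leaving out a library gave −0.14 to 0.36 for Slc4a11 (0.16) and −0.00179 to 0.098 for Ndrg1 (0.07). Depth limits Car9 and Car4, with 77 and 74 counts in all.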
